A study of Gadus morhua with 47 samples.

Results

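The 100 transcripts described here, called constant transcripts, varied least between precision-cut slices of liver from Atlantic cod (Gadus morhua) among 4897 transcripts of moderate level. In all, 22100 transcripts were counted, and those outside this range of level were not ranked. Such slices keep living liver tissue in a culture dish, and each was exposed to BaP (benzo[a]pyrene), EE2 (ethynylestradiol), both together (Mix) or the vehicle DMSO. They were chosen by their spread in CPM (mapped segments per mega segments of the library), divided by TMM factors, which correct each library for its composition. Transcripts with a mean of 20 to 500 CPM over 43 slices were kept, and the 100 with the smallest standard deviation (SD) of log2(CPM + 0.1) were taken. Every value over these 43 slices was therefore used to choose the transcripts and is given as a description. Counts of transcripts called in comparisons that include these slices are printed for reference, and support nothing.

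The 47 libraries comprised 8 slices with DMSO, 7 with the low dose of BaP (10 nM) and 7 with the high dose (1 µM), 7 with EE2 at 10 nM and 6 at 1 µM, and 6 at either dose of Mix, which held each compound at the stated dose. They came from 8 fish, 5 males and 3 females, with body weights of 346 to 820 g and liver weights of 16 to 93 g, and each fish gave slices to several treatments. Libraries held 36.6 M to 67.0 M mapped segments, where M stands for mega, and the median library held 49.1 M. The choice left out 4 slices that had deviated from the rest of their fish in earlier results. They were the DMSO slice of fish 2, the BaP 10 nM slice of fish 6, the BaP 1 µM slice of fish 7 and the Mix 1 µM slice of fish 8. Their TMM factors were 0.572 to 0.758, against 0.832 to 1.28 in the other 43. The kept slices numbered 7 with DMSO, 6 with BaP 10 nM, 6 with BaP 1 µM, 7 with EE2 10 nM, 6 with EE2 1 µM, 6 with Mix 10 nM and 5 with Mix 1 µM. Slices of 1 fish share that animal, so they are not independent samples of cod liver. The sources used here give neither the time of exposure nor the age of the fish. The libraries were made from total RNA with a stranded kit for mRNA.

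Reference transcripts are those whose level is taken to be the same in all samples, so that other transcripts can be measured against them, for example in quantitative PCR. A good reference varies little between individuals and treatments and is neither rare nor dominant in the tissue. BaP, a polycyclic aromatic hydrocarbon, activates the aryl hydrocarbon receptor and the detoxification genes under it. EE2, an estrogen used in contraceptives, induces egg yolk precursor proteins in fish liver. Exposures of this kind call for references that do not follow the exposure. Slices hold hepatocytes together with the other cells of the liver. In such bulk tissue, fewer cells of a type and less RNA per cell cannot be told apart. The deposited files do not pair the transcript identifiers with gene names, and the name table for this species (assembly gadMor3.0, 33114 genes) matched 0 of them, so the transcripts are called by identifier, no role is given, and the labelled tissue could not be checked against marker genes.

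The 100 transcripts spanned an SD of log2(CPM + 0.1) from 0.093 to 0.178, with a median of 0.163, while the median over all 4897 transcripts of the same range of level was 0.404. Their coefficient of variation was 6.54% to 13.3%. Between the lowest and the highest of the 43 slices, a constant transcript differed by 1.38-fold to 1.95-fold, with a median of 1.61-fold. All 100 stayed under 2-fold, as did 10.8% of the 4897, whose median was 3.16-fold. At the edge of the choice the values formed no gap. ENSGMOT00000014325.1, ENSGMOT00000009083.1 and ENSGMOT00000006706.1, the last 3 taken, each had an SD of 0.178. The next 3, ENSGMOT00000018788.1, ENSGMOT00000001553.1 and ENSGMOT00000013388.1, each had 0.179.

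The constant transcripts had mean levels of 22.3 to 366 CPM, with a median of 56.9 CPM against 44.2 CPM in the whole range. Of the 100, 45 lay between 20 and 50 CPM, 33 between 50 and 100 CPM and 22 above 100 CPM, against 55.7%, 25.8% and 18.5% of the range. Per length, their median level was 39 CPM per kilobase of coding sequence, from 9.20 for ENSGMOT00000006943.1 to 455 for ENSGMOT00000008629.1, against a median of 34.4 in the range. ENSGMOT00000006149.1 had the highest mean level before length was taken into account, 366 ± 42.7 CPM (SD, n = 43), and ENSGMOT00000001224.1 the lowest, 22.3 ± 1.97 CPM. The middle slice of a constant transcript held a median of 2788.5 counts. With both mates of a fragment counted, counting error alone would give a median SD of 0.038 on the log2 scale, and it amounted to a median of 5.96% of these transcripts' variance, against 1.18% in the range.

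**Figure D1:**
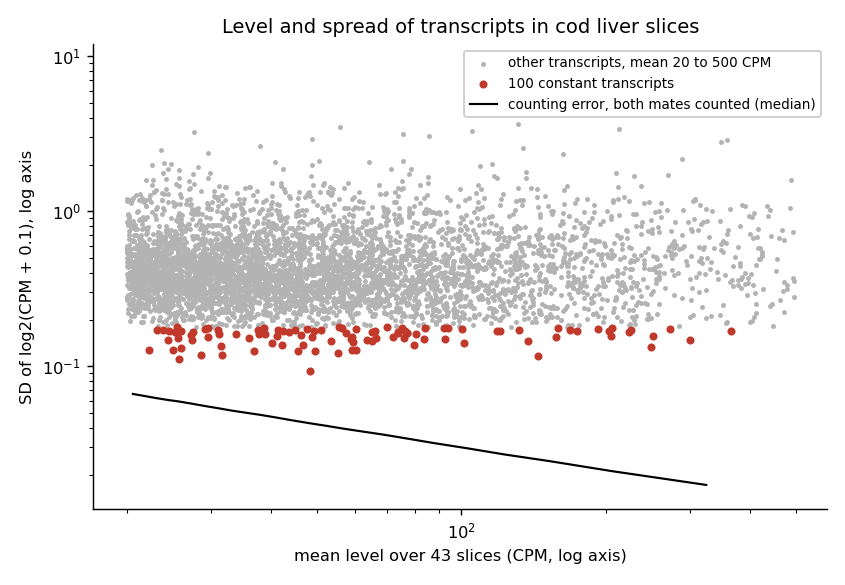
Mean level over 43 slices (CPM, log axis) against the SD of log2(CPM + 0.1) (log axis) for the 100 constant transcripts (red) and the others with a mean of 20 to 500 CPM (grey). The line is the median SD from counting error with both mates counted, and the red points, from 0.093 to 0.178, lie above it at every level.

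Coding length was not part of the rule. However, differences of a kept slice from its fish correlated with log2 coding length across the range, by -0.66 to 0.52. Length can thus enter the spread that the choice used. The constant transcripts had a median coding length of 1491 bases, from 411 bases in ENSGMOT00000015729.1 to 3825 bases in ENSGMOT00000015110.1, and the range had a median of 1356 bases. With library totals in place of TMM factors, the 100 then chosen had a median below 1356 bases, so the direction depended on the scaling. Both extremes of length were less common among them. Only 1 of the 100 was shorter than 500 bases, against 8.64% of the range, and 9 had 3000 bases or more, against 14.3%. Of the 100 transcripts of the range with the largest SD, 9 were shorter than 500 bases and 9 had 3000 bases or more. Fewer long transcripts were thus not particular to the constant ones. In contrast, 69 had at least 1000 but under 3000 bases, against 52.6%, and 21 had at least 500 but under 1000 bases, against 24.4%. The share of a transcript's segments that were unmapped while their mate was mapped had a median of 16.2% for the constant transcripts and 18.4% for the range.

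The transcript with the smallest spread was ENSGMOT00000006338.1, with a coding length of 885 bases and 48.3 ± 3.16 CPM (SD, n = 43). Its lowest, median and highest levels were 43.7, 48.9 and 57.7 CPM with DMSO, 41.8, 48.2 and 50.1 CPM with BaP 10 nM, and 46.5, 47.2 and 53.4 CPM with BaP 1 µM. They were 43.3, 48.8 and 52.8 CPM with EE2 10 nM, 44.8, 47.2 and 51.3 CPM with EE2 1 µM, and 46.7, 48.8 and 55.5 CPM with Mix 10 nM. The 5 kept slices with Mix 1 µM gave 47.6, 50.8, 43.4, 47.5 and 46.0 CPM. The ranges of all 7 groups overlapped, and the medians stayed between 47.2 and 48.9 CPM. By fish, the mean ran from 45.8 CPM in fish 3 to 52.4 CPM in fish 7.

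Next came ENSGMOT00000007008.1, of 1671 bases, with 25.7 ± 2.0 CPM, and ENSGMOT00000020257.1, of 1926 bases, with 145 ± 11.6 CPM (SD, n = 43). The first ranged from 21.1 CPM in the DMSO slice of fish 3 to 30.7 CPM in the BaP 10 nM slice of fish 4, and its group medians lay between 24.4 and 26.3 CPM. The second ranged from 117 CPM in the BaP 1 µM slice of fish 2 to 175 CPM in the EE2 10 nM slice of fish 4, and its group medians lay between 140.1 and 148 CPM. Groups overlapped for both. For ENSGMOT00000020257.1 the fish stood further apart than the treatments, with a mean of 127 CPM in fish 2 and 157 CPM in fish 4, and these fish did not overlap (117 to 132 CPM and 148 to 175 CPM). ENSGMOT00000007122.1, of 2790 bases, followed with 28.6 ± 2.32 CPM. ENSGMOT00000006866.1, of 816 bases, was the fifth, with 31.7 ± 2.65 CPM. Its 3 slices of fish 7 gave 36.2 to 37.5 CPM, above all 6 slices of fish 3 at 27.1 to 30.2 CPM.

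**Figure D2:**
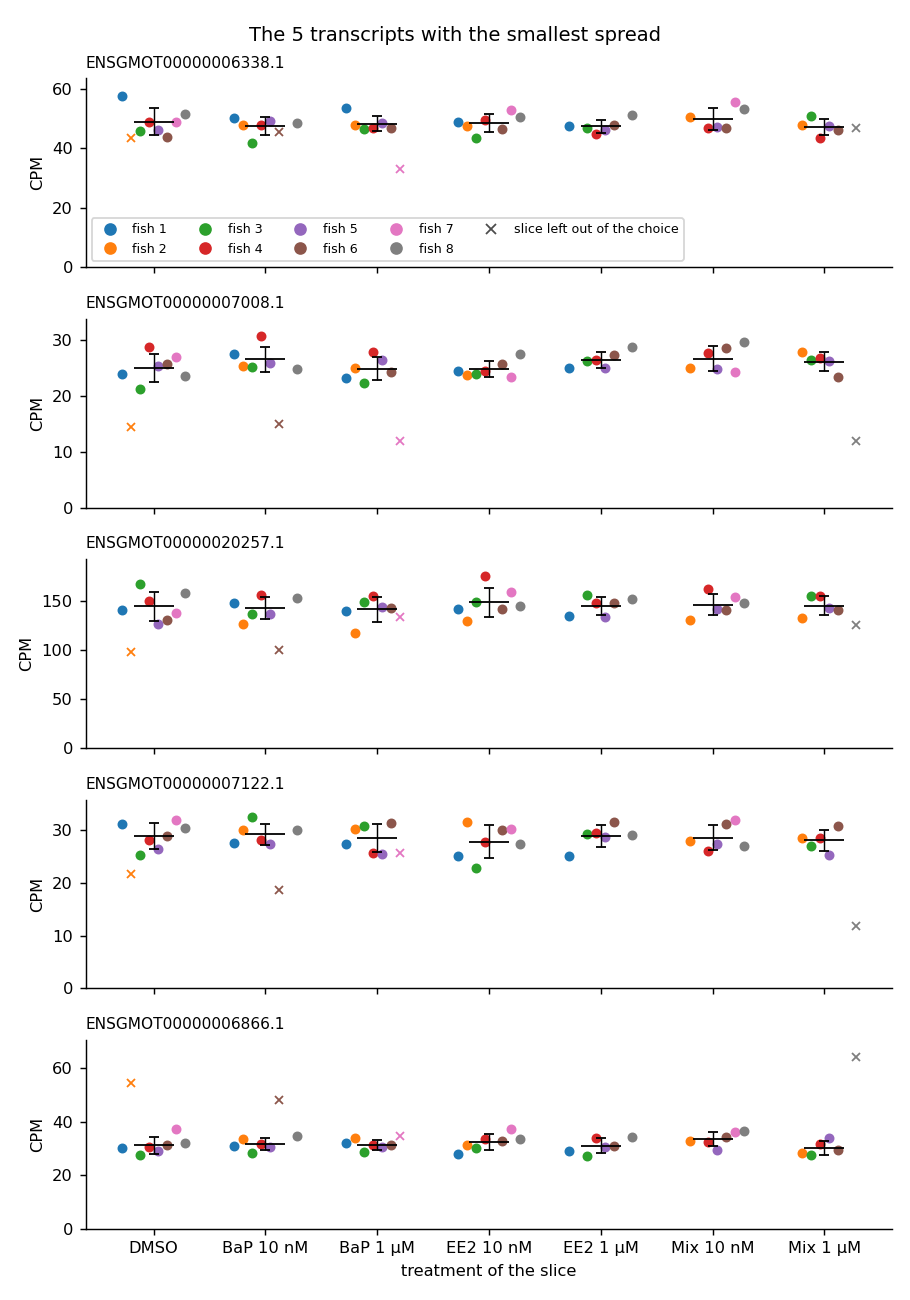
Level (CPM) by treatment of the 5 transcripts with the smallest spread, 1 panel each, where a point is a slice coloured by fish, the lines are the mean ± SD of the kept slices and crosses are the 4 slices left out of the choice. The kept slices of ENSGMOT00000006338.1 lie between 41.8 and 57.7 CPM in all 7 groups, and several crosses lie outside the range of the kept slices, such as 64.2 CPM for ENSGMOT00000006866.1 in the Mix 1 µM slice of fish 8.

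The spread was split into fish, treatment and a rest (what neither explains) as shares of the sum of squares, averaged over both orders of entry. No fish had repeated slices of a treatment. The rest thus holds slice to slice differences, responses that differ between fish and counting error, which the split cannot tell apart. For the constant transcripts, a median of 60.3% lay between fish, 8.83% between treatments and 29% in the rest. By degrees of freedom alone the shares would be 16.7%, 14.3% and 69.0%. In the whole range the medians were 78.7%, 7.07% and 13.7%. Fish was the largest of the 3 shares for 78 of the 100 and the rest for 22, while treatment was the largest for none. In the range these shares were 97.2%, 2.25% and 0.531%. The treatment share exceeded its share of degrees of freedom in 25 of the 100, against 13.9% of the range. The 3 shares add up to the whole, so a large fish share lowers the treatment share. A treatment share under 14.3% is therefore not read as absence of a treatment effect. When fish and treatment were fitted as random effects, the medians were 59.6% for fish, 1.99% for treatment and 38.1% for the rest. In the range they were 79.4%, 1.95% and 17.5%, so the median treatment share was nearly the same. The treatment component was estimated at 0 for 38 of the 100, against 21.9% of the range.

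**Figure D3:**
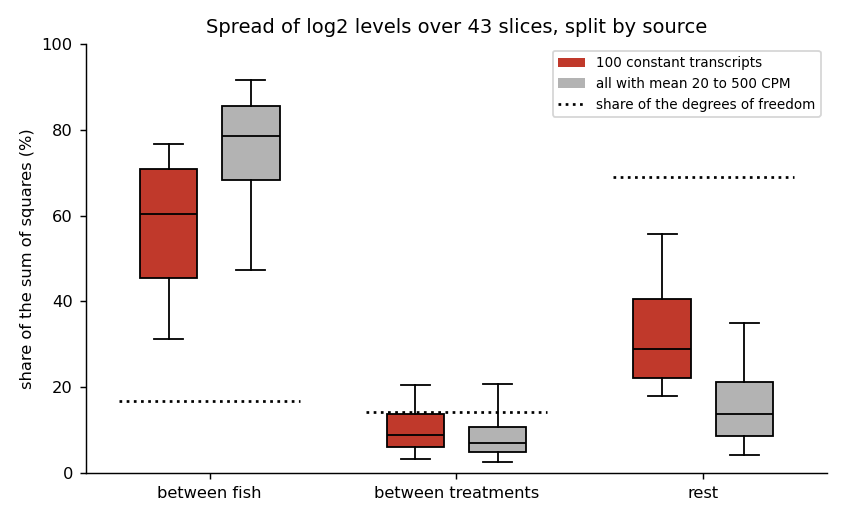
Share of the sum of squares of log2 levels over 43 slices (%) between fish, between treatments and in the rest, for the 100 constant transcripts (red) and all 4897 of the range (grey), with boxes from the first to the third quartile, a line at the median and whiskers at the 5th and 95th percentiles. The dotted lines are the shares of degrees of freedom, and the fish boxes lie above theirs while the red median for fish, 60.3%, is below the grey one, 78.7%.

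In absolute terms both sources were small, as the choice by small total spread sets. The highest and lowest fish means of a constant transcript had a median distance of 0.38 (log2), and 0.57 at most, against a median of 1.11 in the range. The highest and lowest treatment means differed by a median of 0.15, and by 0.26 at most, against 0.37. Treatment means are plain means of the kept slices, not adjusted for fish. Not every fish has a kept slice with each treatment, so they also carry differences between fish. The SD within a fish had a median of 0.11, against 0.19. The largest fish share belonged to ENSGMOT00000015110.1, the longest of the 100, with 83.9% between fish. Its means were 100.3 CPM in fish 1, at 94.9 to 102 CPM, and 141 CPM in fish 4, at 132 to 149 CPM, so these fish did not overlap, while its treatment means lay between 115 and 124 CPM. The largest share in the rest was that of ENSGMOT00000014560.1, with 66.9%, whose 43 slices ran from 37.2 to 58.4 CPM.

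The largest treatment share, 30.1%, was that of ENSGMOT00000015429.1. Its lowest, median and highest levels were 52.4, 57.2 and 61.5 CPM with DMSO, 56.6, 68.8 and 74.7 CPM with EE2 10 nM and 54.1, 61.1 and 80.5 CPM with BaP 1 µM. The medians of the other 4 groups lay between 54.8 and 56.6 CPM. EE2 10 nM thus had the highest group median, though its slices overlapped with those of DMSO. Its log2 fold change with EE2 10 nM against DMSO was 0.21 ± 0.07 (SE) over the 43 slices. Over all 47 it was -0.05 ± 0.23, nearer to 0 than its SE, so no sign is read from it. The levels of this transcript were high in the 4 slices. Of these, only the DMSO slice of fish 2 belongs to a group of this comparison.

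No fish or treatment held most of the extremes. Fish 8 had the highest mean for 21 of the 100, fish 4 for 20, fish 1 for 18 and fish 7 for 16, and fish 5 had the lowest mean for 16. Of the 4897, fish 8 had the highest mean for 703, fish 4 for 897, fish 1 for 872 and fish 7 for 781, and fish 5 had the lowest for 470. EE2 10 nM had the highest treatment mean, not adjusted for fish, for 33 of the 100 and for 1256 of the 4897. The EE2 10 nM slice of fish 7 was the highest of all 43 slices for 13 of the 100 and the lowest for 6. The same counts were not made over the range, so nothing is read from them. Female and male fish means differed by -0.17 to 0.20 on the log2 scale (female minus male), and 56 of the 100 were higher in females, against 45.6% of the range. None differed by more than 0.3, whereas 23.2% of the range did.

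Each treatment was compared with DMSO by the quasi-likelihood test of edgeR on all 47 libraries, with fish as a block and a Benjamini-Hochberg adjusted p under 0.05 as the threshold, over 17824 transcripts. Of the constant transcripts, 0 of 100 were called in any of the 6 comparisons. Of all transcripts tested, 0% were called with BaP 10 nM, 0.0673% with BaP 1 µM, 0.286% with EE2 10 nM, 0.348% with EE2 1 µM, 0.236% with Mix 10 nM and 0.41% with Mix 1 µM. Since the choice used 43 of these libraries, and since so few transcripts were called at all, nothing is read from the count of 0. Before adjustment, a p under 0.05 was reached by 0, 4, 0, 0, 0 and 1 of the 100 in that order with edgeR, and by 281, 1237, 696, 762, 888 and 1046 of the 17824. With DESeq2, which also called 0 of 100 in each comparison, it was reached by 0, 7, 0, 1, 1 and 4 of the 100 and by 383, 1515, 859, 942, 1048 and 1314 of all transcripts. DESeq2 called 0, 31, 65, 80, 56 and 132 of all transcripts. Without the 4 slices, 0 of 100 were called again, where edgeR called 0.00558%, 0.128%, 2.43%, 0.496%, 0.29% and 0.524% of 17930 transcripts, and an unadjusted p under 0.05 was reached by 0, 7, 15, 2, 0 and 1 of the 100 and by 624, 1829, 3378, 1559, 1239 and 1430 of the 17930. Between female and male DMSO slices, 0 of 100 were called, with 0 of 100 at an unadjusted p under 0.05 in edgeR and in DESeq2, which had 338 of 16813 and 485 transcripts in all at that level. Of all transcripts edgeR called 0% both with and without the DMSO slice of fish 2, and DESeq2 called 12.

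The fold changes themselves were small. In the same order of comparisons, the median absolute log2 fold change of the constant transcripts was 0.03, 0.08, 0.04, 0.07, 0.09 and 0.07, beside 0.10, 0.19, 0.14, 0.16, 0.18 and 0.17 over all transcripts tested. These comparisons share the DMSO slices. The largest absolute log2 fold change of a constant transcript over the 6 comparisons had a median of 0.16 and stayed under 0.3 for 99 of the 100. The exception was ENSGMOT00000017091.1, named after its value was seen, at 0.33. Without the 4 slices the median was 0.10 and the highest 0.23, again for ENSGMOT00000017091.1.

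The 4 slices left out of the choice give readings of the same transcripts that the choice did not use, apart from the TMM factors, which were computed over all 47 libraries. In each, a level was compared with the mean of the other slices of its fish. The constant transcripts differed by a median absolute log2 difference of 0.37 in the DMSO slice of fish 2, 0.35 in the BaP 10 nM slice of fish 6, 0.64 in the BaP 1 µM slice of fish 7 and 0.74 in the Mix 1 µM slice of fish 8. In the range the values were 0.64, 0.57, 1.00 and 0.98. In the 43 kept slices the same measure for the constant transcripts was 0.04 to 0.17. The kept slices were used by the choice and the 4 were set aside as deviating, so the choice itself sets this contrast and nothing is read from it.

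Differences over 2-fold were found for 4 of the 100 in the DMSO slice of fish 2, 5 in the BaP 10 nM slice of fish 6, 21 in the BaP 1 µM slice of fish 7 and 29 in the Mix 1 µM slice of fish 8. The range had 27.9%, 20.5%, 50.0% and 49.3%. In all 4 slices, 59 of the 100 stayed within 2-fold, as did 31.9% of the range. Of the 100, 34 were higher in all 4 slices, 26 were lower in all 4 and 40 were mixed, and in the range 38.3% were higher in all 4 and 31.6% lower. The median signed difference of the 100 was 0.09, 0.09, -0.07 and 0.29 in the same order of slices, against 0.09, 0.04, 0.17 and 0.09 in the range. It depended on the scaling, because with library totals in place of TMM factors it was -0.66, -0.58, -0.75 and -0.83.

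**Figure D4:**
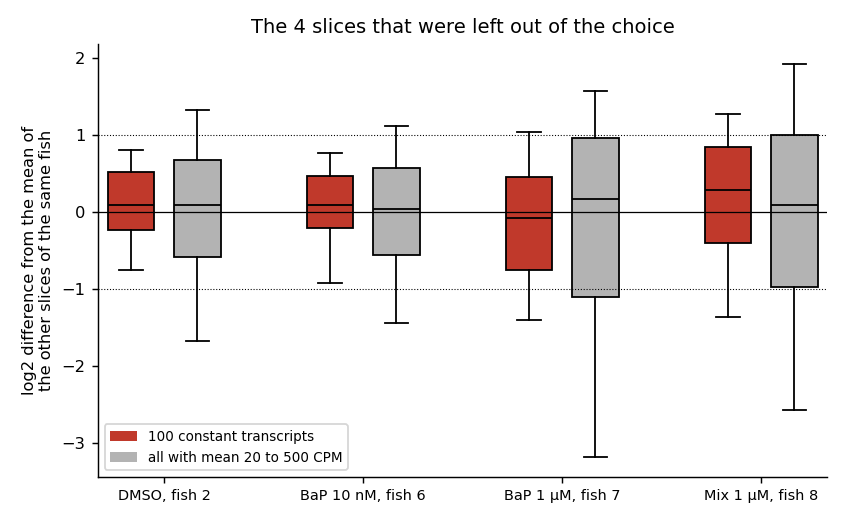
Log2 difference of each of the 4 left-out slices from the mean of the other slices of its fish, for the 100 constant transcripts (red) and all 4897 of the range (grey), with boxes from the first to the third quartile, a line at the median and whiskers at the 5th and 95th percentiles. Dotted lines mark 2-fold, beyond which lay 4, 5, 21 and 29 of the 100 from left to right.

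Coding length went with the difference in these slices. Across the 4897 transcripts the correlation between the difference and log2 coding length was -0.55, -0.54, -0.65 and -0.53 in the same order, so that longer transcripts read lower. Across the 100 constant transcripts it was -0.22, -0.31, -0.22 and -0.19. Such correlations were not particular to the 4 slices. In the kept slices, across the 4897, they ran from -0.66 (EE2 10 nM slice of fish 7) to 0.52 (DMSO slice of fish 7). Across the 100 they ran from -0.36 (BaP 1 µM slice of fish 4) to 0.44 (EE2 1 µM slice of fish 8). Kept slices of fish 7 were each compared with only 2 others, among them each other. The size of the differences was larger in the 4 slices. Transcripts of the range under 1491 bases had medians of 0.48, 0.39, 0.79 and 0.67 there, and longer ones -0.40, -0.39, -0.88 and -0.65. In the EE2 10 nM slice of fish 7 these medians were 0.31 and -0.18. Transcripts share the library within a slice and are not independent replicates. The part of length in these differences was not tested.

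Single transcripts behaved very differently there. ENSGMOT00000004919.1, of 3060 bases, read 45.9, 44.1, 55.0 and 53.1 CPM in the 4 slices, beside means of 45.9, 48.5, 60.9 and 52.5 CPM in the kept slices of fish 2, 6, 7 and 8. Its largest difference was 0.14 on the log2 scale, the smallest such value among the 100. ENSGMOT00000006943.1, of 2586 bases, followed with at most 0.24, at 20.4, 30.4, 25.1 and 21.2 CPM. By spread over the 43 slices, these transcripts ranked 9 and 82 among the 100.

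Other constant transcripts lay far off. ENSGMOT00000018312.1 read 4.46 CPM in the BaP 1 µM slice of fish 7, from 210 counts, where the other 3 slices of that fish had 31.2 to 46.6 CPM, a log2 difference of -3.15. ENSGMOT00000017615.1 read 25.2 CPM in the same slice, against 115 to 181 CPM in the other slices of the fish, a difference of -2.62, but 179, 168 and 241 CPM in the other 3 left-out slices. In the kept EE2 10 nM slice of fish 7 both had their lowest level of all 43 slices, 31.2 and 115 CPM. ENSGMOT00000015429.1, the one with the largest treatment share, was higher in all 4 slices, at 154, 118, 161 and 174 CPM, above its 50.4 to 80.5 CPM in the 43. Among the 5 with the smallest spread, ENSGMOT00000007008.1 lay below its kept range in all 4, at 14.4, 14.8, 11.9 and 12 CPM, while ENSGMOT00000006338.1 did so in 1 slice, at 33 CPM in the BaP 1 µM slice of fish 7.

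A further reading came from repeating the choice without each fish in turn and measuring the 100 transcripts so chosen in the fish left out. Between 68 and 89 of each 100 were also among the 100 described here. The median SD of log2(CPM + 0.1) over the kept slices of the fish left out was 0.121, 0.097, 0.119, 0.115, 0.083, 0.096, 0.132 and 0.077 for fish 1 to 8. All transcripts of the range gave 0.201, 0.193, 0.182, 0.183, 0.118, 0.144, 0.209 and 0.135. The chosen transcripts thus varied less than the range in each of the 8 fish, and 80 to 98 of each 100 lay under the median of the range. Their mean level in the fish left out also lay nearer to that in the other fish, by a median absolute log2 offset of 0.09 to 0.20, against 0.18 to 0.41 for the range.

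**Figure D5:**
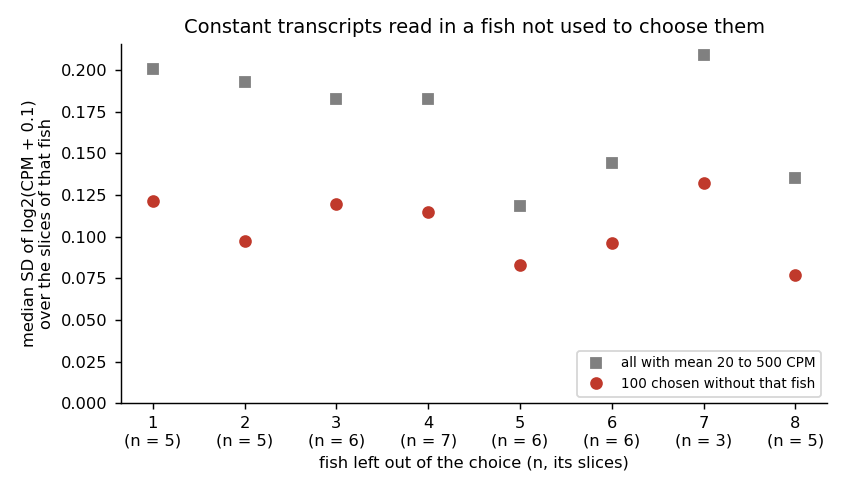
Median SD of log2(CPM + 0.1) over the slices of each fish, for the 100 transcripts chosen without that fish (red circles) and all transcripts of the range (grey squares), with n the kept slices of the fish. The red circles lie between 0.077 and 0.132, below the grey square of the same fish in all 8.

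Over the 43 slices, which share fish and libraries, the correlation between pairs of constant transcripts had a median of 0.05, from -0.71 to 0.82, against a median of 0.0075 in the range. It exceeded 0.5 in 4.75% of 4950 pairs, against 12.9% of pairs in the range. The first principal component held 16.2% of their variance, against 38.4% in the range, and 69.4% of its spread lay between fish. A choice by small total spread over the same 43 slices can lower both values. Independence of the constant transcripts from each other is therefore not read from them. The log2 ratio of a pair, which needs no scaling of the libraries, had a median SD of 0.21. It was lowest, at 0.10, for ENSGMOT00000006866.1 with ENSGMOT00000004919.1, and highest at 0.32. When transcripts were ranked instead by the mean SD of their log2 ratios to all others of the range (the geNorm measure M), 81 of the 100 were among the 100 lowest and 97 among the 200 lowest. M contains each transcript's own spread over the same 43 slices, so the choice itself sets part of this overlap.

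As a set of references, the mean log2 level of the 100 was compared with the TMM scaling in each slice. The SD of this index over the 43 slices was 0.037 for all 100, 0.045 for the 10 with the smallest spread, 0.065 for the first 3 and 0.093 for the first alone. The choice took the smallest spread after the same TMM scaling in the same 43 slices. It therefore sets these small values, and nothing is read from them. No such index was computed for other transcripts of the range. In the 4 left-out slices the index of all 100 lay 0.06, 0.06, -0.10 and 0.20 from its mean over the 43. That of the first 10 lay at -0.07, -0.11, -0.47 and -0.22, and that of the first 3 at -0.51, -0.46, -0.58 and -0.44. That of the first alone lay at -0.15, -0.09, -0.54 and -0.04. The number of transcripts thus had no single order with the distance from the TMM scaling in the 4 slices: the first 3 were further off than all 100 and than the first alone in each, and the first alone was nearer than all 100 in the Mix 1 µM slice of fish 8.

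The choice was repeated under 20 alternatives of scaling, libraries, range of level and measure of spread. ENSGMOT00000020257.1, ENSGMOT00000006779.1 and ENSGMOT00000009574.1 were chosen under all 20. A further 11 were chosen under 19, of which ENSGMOT00000006338.1 and ENSGMOT00000006866.1 had the smallest spread. A constant transcript was chosen under a median of 16 of the 20, and 64 were chosen under at least 15. Many alternatives stay close to the main choice, such as leaving out each fish in turn, so these are not counts over independent choices. Fewer were kept with library totals, all 47 libraries, the median absolute deviation or the mean SD within fish, as given at the end. ENSGMOT00000009574.1, of 1593 bases and 79.8 ± 7.87 CPM (SD, n = 43), stayed within 0.26 on the log2 scale in each of the 4 left-out slices. ENSGMOT00000006779.1, of 1209 bases and 46.8 ± 4.44 CPM, lay 0.23 to 0.52 higher in them, and ENSGMOT00000020257.1 lay 0.17 to 0.50 lower.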

How the data were processed

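Per the submitters' processing notes, the authors used FastQC 0.11.5, HISAT2 2.1.0 and SAMtools 1.4.1. Not given in the sources used here are the build and the aligner options. The deposited tables hold raw counts of mapped segments per transcript, and of unmapped segments with a mapped mate. By their layout, both mates add to a count. How segments that match several transcripts were counted is not given, so near-identical transcripts may share reads. Segments placed on no transcript (41.8% to 57.8%) stayed out. Lengths are multiples of 3 for 99.99% of transcripts and are called coding lengths.

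From these counts, CPM were divided by TMM factors of edgeR 4.0.16 (R 4.3.3, Python 3.11.15), computed on 17824 transcripts passing its expression filter (minimum count 10, minimum total count 15). The pseudocount was 0.1 CPM. Random effects were fitted with lme4 1.1.37. DESeq2 1.42.0 was an alternative. Log2 fold changes carry standard errors (SE). The scripts were tested on simulated data.

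In every group, the labels give a replicate number the same sex, liver weight and body weight, so it marks a fish, which was the block. Deviations from group means went together within a fish (mean r 0.651 across transcripts, lowest -0.0843, or 0.412 without the 4 slices; different fish -0.0882). No libraries were identical. In the treatment comparisons with fish as a block, p-values rest on the spread between slices that fish and treatment leave. In the sex comparison they rest on the spread between the DMSO slices of the 8 fish.

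The members and lists were chosen with earlier results of these data known. Transcripts were named by rule: the 5 with the smallest spread, 3 on each side of the limit, the extremes of level, length and each share of spread, the 2 most and 2 least displaced in the left-out slices, and up to 5 chosen under most alternatives; ENSGMOT00000017091.1 and ENSGMOT00000008629.1 were added after their values were seen. Marker and reference gene lists could not be applied, since no identifier matched a name.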

Additional observations from a re-analysis of the deposited data

Results flagged for a closer look

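Within treatment groups, 147 sets of kept slices were read for 21 named transcripts, and in 7 of them 1 slice lay far from the others, beyond the 95% critical value of Dixon's test. Chance flags about 1 in 20 independent groups, which is about as many as were found. The source of these flags was not tested. The BaP 1 µM slice of fish 1 was the highest of its group for ENSGMOT00000006338.1 (53.4 CPM, others 46.5 to 48.6), for ENSGMOT00000009083.1 (31.3 CPM, others 23.2 to 25.5) and for ENSGMOT00000014560.1 (56.9 CPM, others 44.4 to 47.5). The EE2 10 nM slice of fish 3 was the highest for ENSGMOT00000009083.1 (33.7 CPM, others 24.4 to 27.9) and for ENSGMOT00000014560.1 (58.4 CPM, others 43.2 to 49.7). The BaP 10 nM slice of fish 3 was the lowest for ENSGMOT00000006338.1 (41.8 CPM, others 47.6 to 50.1), and the DMSO slice of fish 8 was the highest for ENSGMOT00000001224.1 (28 CPM, others 20.9 to 23.9). Transcripts of 1 slice share its library, so these flags are not independent of each other.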

How the results depend on the processing

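The choice itself depended on the scaling, the slices and the measure of spread. Of the 100 transcripts, 18 were chosen again with library totals in place of TMM factors, 46 with all 47 libraries, 55 by the median absolute deviation and 33 by the mean SD within fish. The other settings kept 81 to 100, and leaving out 1 fish kept 68 to 89. With all 47 libraries the median SD was 0.215 (0.149 to 0.162 without 1 fish). The fish share was 35.2% with all 47 libraries and 71.4% with library totals (57.9% to 62.2% without 1 fish). The treatment share was 1.99% as a random effect (8.70% to 10.7% without 1 fish), and the rest 38.1% as a random effect, 54.7% with all 47 libraries and 20.3% with library totals. The median coding length was 1144.5 bases with library totals. In the left-out slices, library totals gave median differences of -0.66, -0.58, -0.75 and -0.83, and DESeq2 size factors gave 0.44 for Mix 1 µM of fish 8. The cause of these shifts was not tested.

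Constant transcripts called stayed at 0 of 100 in each comparison under all settings run, including the fit without the replicate block. Counts over all transcripts moved. Without the block, BaP 1 µM had 6 calls, EE2 10 nM 11, EE2 1 µM 16, Mix 10 nM 7 and Mix 1 µM 32, against 12, 51, 62, 42 and 73 with it. Without the 4 slices BaP 10 nM had 1, BaP 1 µM 23 and EE2 10 nM 435. DESeq2 gave 31 for BaP 1 µM, 132 for Mix 1 µM and 12 for sex. Leaving out 1 fish gave 7 to 11 for BaP 1 µM (7 without fish 4), 32 to 51 for EE2 10 nM (32 without fish 4), 26 to 40 for Mix 10 nM (26 without fish 2 or fish 4), 43 to 99 for Mix 1 µM (43 without fish 3) and 47 to 69 for EE2 1 µM. The spread of 17 of the 21 named transcripts moved with library totals.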
